A study of Mus musculus with 33 samples.

Results

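Cbx5, Cbx1 and Cbx3 encode HP1α, HP1β and HP1γ, the 3 paralogs of heterochromatin protein 1 in the mouse. They were selected by name in all 8 deposited tables and are 3 of the 55487 genes listed there. RNA-seq libraries of mouse embryonic stem cells (ESCs, strain C57BL/6) made up 11 groups of 3 libraries, 33 libraries in all. Constitutive CRISPR/Cas9 mutants lacked Hp1α (HP1αKO in the labels), Hp1β (HP1βKO) or Hp1γ (HP1γKO), or any pair of them, and are written Hp1α Δ/Δ, Hp1β Δ/Δ, Hp1γ Δ/Δ, Hp1β/γ Δ/Δ, Hp1α/γ Δ/Δ or Hp1α/β Δ/Δ. The triple mutant, Hp1α/β/γ Δ/Δ (HP1β/γ/αTKO), came from ESCs without Hp1α and Hp1β whose Hp1γ alleles were floxed, and was collected a few days after transfection of Cre recombinase, so it was a recently recombined population and not an expanded clone. Setdb1 F/F ESCs (SETDB1FF) carry loxP sites around exons of Setdb1, and Setdb1 Δ/Δ cells (SETDB1KO) are their Cre-recombined counterparts. The remaining 6 libraries share the label WT and are called set A and set B after their titles. Set A is the deposited control of the single mutants, Hp1α/β Δ/Δ and the triple mutant, and set B that of Hp1β/γ Δ/Δ and of Hp1α/γ Δ/Δ. The methods describe floxed cells given a control vector as the control of the triple mutant, whereas the labels of the deposited control say only WT. The single and double mutants were isolated as individual clones on feeder fibroblasts, and nothing in the labels tells how many clones stand behind the 3 libraries of a genotype. P-values therefore measure the spread between libraries, which can be smaller than that between clones.

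HP1 proteins read histone H3 methylated at lysine 9 with an N-terminal chromodomain and dimerize through a C-terminal chromoshadow domain, which also holds partners such as TRIM28 and the chromatin assembly factor CAF-1. HP1α and HP1β are known mainly from pericentromeric heterochromatin, and HP1γ also from the bodies of active genes. SETDB1 writes trimethylated H3K9 together with TRIM28 and keeps many retroelements silent in ESCs. When a member of a gene family is lost, the others can stand in for it with the protein already present or by a higher RNA level, and only the latter can be read from these libraries.

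Each paralog was cut with a pair of guide RNAs, drawn in the targeting scheme on either side of exon 3, which are shown because they define which part of each RNA the mutants should lack.
Cbx5 upstream guide: ctcgccagttctgccgagat
Cbx5 downstream guide: ggctgagtgagaactagtag
Cbx1 upstream guide: tactaggaaagtctagcgat
Cbx1 downstream guide: tcttgcatagaagcctaggc
Cbx3 upstream guide: gaggtgcttacactggatca
Cbx3 downstream guide: tatgatagccttgccgagcg
In GRCm38, Cbx5 lies on the minus strand at chr15:103191544-103239816, Cbx1 on the plus strand at chr11:96789127-96808640, and Cbx3 on the plus strand at chr6:51470360-51483704. The upstream guide of Cbx1 matched chr11:96801311-96801330 on the plus strand, inside intron 2 of the main transcript and followed by the PAM TGG. The other 5 guides were not placed on the genome here, so the loss of exon 3 rests on the scheme. Exon 3 is coding throughout in all 3 genes. It spans 187 bases in Cbx5, 178 in Cbx1 and 143 in Cbx3, none of them a multiple of 3. It makes up 2.12% of the Cbx5 transcript, 14.23% of that of Cbx1 and 7.57% of that of Cbx3, so a transcript without it can still collect most of its reads. A count in these genes is therefore a measure of their RNA and not of an intact coding sequence.

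Total counts ran from 17330992 to 25743193 per library. Replicates of a group correlated at 0.993 to 0.997 on log2 CPM, counts scaled to library size, except that Hp1α/γ Δ/Δ replicate 2 correlated at 0.972 and 0.975 with its replicates. All 8 markers of ESCs (among them Pou5f1, Sox2 and Nanog) exceeded 1 CPM in every group, with summed levels between 1296 CPM in the triple mutant and 6568 CPM in Setdb1 F/F ESCs. The 10 markers of feeder fibroblasts summed to 13.4 to 67.2 CPM per library, with Lum or Postn at 0 in all libraries of 5 groups. The 8 markers of primitive endoderm summed to 36.1 to 205 CPM. These are bulk libraries, in which fewer cells of a type and less RNA per cell cannot be told apart.

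Cbx1 was the most abundant paralog in wild-type ESCs. Levels between genes are given as TPM, the RNA-seq abundance per transcript length and per library total. In set A, Cbx1 reached 438, 460 and 452 TPM, Cbx3 150, 142 and 142 TPM, and Cbx5 84.99, 95.5 and 93.5 TPM. In set B, Cbx1 reached 402, 389 and 394 TPM, Cbx3 165, 132 and 150 TPM, and Cbx5 74.6, 75.2 and 71.7 TPM. The groups of values of the 3 genes did not overlap in either set. The order of Cbx3 and Cbx5 depended on the length used. RPKM, CPM per kilobase of the union of all annotated exons, gave set A means of 102.7 ± 1.80 for Cbx1, 53.8 ± 0.670 for Cbx5 and 29.5 ± 1.23 for Cbx3 (SD, n = 3).

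The RNA of each deleted paralog fell but stayed well above 0. Levels of a single gene are given below in CPM after scaling by trimmed mean of M values (TMM), and changes as log2 fold changes with their standard error (SE) and the Benjamini-Hochberg adjusted p of edgeR's quasi-likelihood test.

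HP1α is encoded by Cbx5. Its level was 489, 478 and 486 CPM in set A and 474, 447 and 437 CPM in set B. It was 175, 180 and 176 CPM in Hp1α Δ/Δ ESCs, 201, 200 and 207 CPM in Hp1α/β Δ/Δ ESCs, and 181, 85.1 and 182 CPM in Hp1α/γ Δ/Δ ESCs. Every library without an intact Cbx5 was below every wild-type library, and Hp1α/γ Δ/Δ replicate 2 was far below its replicates. The log2 fold change was -1.45 (SE 0.026, adjusted p = 4.93e-19) in Hp1α Δ/Δ, where 45.0% of 15841 tested genes passed in either direction and 22.2% passed as lower. It was -1.27 (SE 0.032, adjusted p = 3.52e-15) in Hp1α/β Δ/Δ, where 43.4% of genes passed. In Hp1α/γ Δ/Δ, where 46.5% passed, it was -1.63 (SE 0.30, adjusted p = 0.00396) with all libraries and -1.32 (SE 0.055, adjusted p = 1.96e-10) without replicate 2. The triple mutant held 278, 281 and 287 CPM, the highest level of Cbx5 among the 4 mutants that lack Hp1α, at -0.81 (SE 0.024, adjusted p = 1.40e-16) against set A, where 81.6% of genes passed.

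HP1β is encoded by Cbx1, which lost the largest share of its RNA. Set A held 430, 442 and 444 CPM and set B 407, 373 and 386 CPM. The level was 101, 99.8 and 111 CPM in Hp1β Δ/Δ, 96.8, 98.1 and 94.7 CPM in Hp1α/β Δ/Δ, 68.3, 67.5 and 68.9 CPM in Hp1β/γ Δ/Δ, and 43.9, 45.4 and 49.3 CPM in the triple mutant. The mutants did not overlap with the wild-type libraries, and the triple mutant was the lowest of all 11 groups. Its change ran from -2.095 (SE 0.049, adjusted p = 5.31e-10) in Hp1β Δ/Δ, where 51.1% of genes passed, to -3.27 (SE 0.037, adjusted p = 1.65e-22) in the triple mutant. The mean in the triple mutant was 10.5% of set A. In Hp1α/β Δ/Δ the change was -2.19 (SE 0.035, adjusted p = 7.11e-18), and in Hp1β/γ Δ/Δ, where 51.7% of genes passed, -2.51 (SE 0.048, adjusted p = 3.89e-15).

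HP1γ is encoded by Cbx3. Its level was 186, 173 and 173 CPM in set A and 199, 157 and 175 CPM in set B. It was 73.9, 76.1 and 75.8 CPM in Hp1γ Δ/Δ, 79.6, 100.3 and 84.2 CPM in Hp1α/γ Δ/Δ, 67.6, 63.1 and 65.8 CPM in Hp1β/γ Δ/Δ, and 61.7, 66.0 and 66.2 CPM in the triple mutant. All 4 mutants lay below the wild-type libraries without overlap. The change was -1.23 (SE 0.039, adjusted p = 1.79e-14) in Hp1γ Δ/Δ, where 46.7% of genes passed. It was -1.05 (SE 0.13, adjusted p = 0.000712) in Hp1α/γ Δ/Δ, -1.43 (SE 0.072, adjusted p = 2.57e-10) in Hp1β/γ Δ/Δ and -1.48 (SE 0.040, adjusted p = 4.78e-17) in the triple mutant. Without Hp1α/γ Δ/Δ replicate 2, its change in that genotype was -1.11 (adjusted p = 7.47e-08). The mean level was 37.0% of set B in Hp1β/γ Δ/Δ, which carries the CRISPR deletion, and 36.5% of set A in the triple mutant, which carries the recombined floxed allele.

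**Figure D1:**
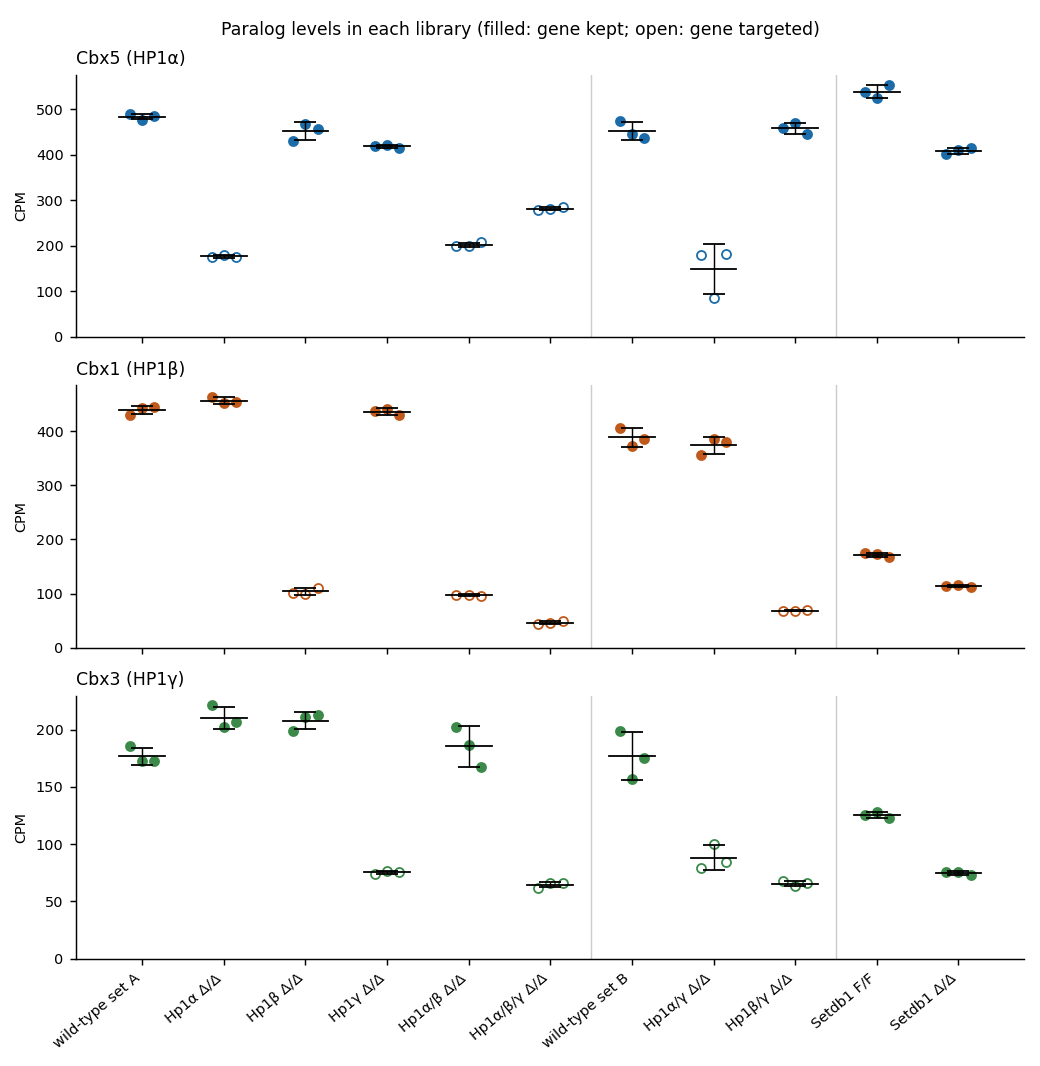
Level of Cbx5, Cbx1 and Cbx3 in each of the 33 libraries, in TMM-scaled CPM on a linear axis from 0, by genotype. Points are libraries and bars are means of 3. Mutants that lack a paralog sit below the wild-type libraries of that panel, and Cbx1 is also low in Setdb1 F/F and Setdb1 Δ/Δ (113 to 174 CPM).

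Taken over all 11 groups, Cbx5 was highest in Setdb1 F/F (539 ± 14.3 CPM), followed by set A, Hp1β/γ Δ/Δ, Hp1β Δ/Δ, set B, Hp1γ Δ/Δ, Setdb1 Δ/Δ, the triple mutant, Hp1α/β Δ/Δ, Hp1α Δ/Δ and Hp1α/γ Δ/Δ. Neighbours overlapped between Hp1β/γ Δ/Δ, Hp1β Δ/Δ and set B, and between Hp1α Δ/Δ and Hp1α/γ Δ/Δ. Cbx1 was highest in Hp1α Δ/Δ (456 ± 6.16 CPM), followed by set A, Hp1γ Δ/Δ, set B, Hp1α/γ Δ/Δ, Setdb1 F/F, Setdb1 Δ/Δ, Hp1β Δ/Δ, Hp1α/β Δ/Δ, Hp1β/γ Δ/Δ and the triple mutant. Its overlapping neighbours were set A with Hp1γ Δ/Δ and set B with Hp1α/γ Δ/Δ. Cbx3 was highest in Hp1α Δ/Δ (210.3 ± 9.86 CPM) and Hp1β Δ/Δ (208 ± 7.46 CPM), followed by Hp1α/β Δ/Δ, set A, set B, Setdb1 F/F, Hp1α/γ Δ/Δ, Hp1γ Δ/Δ, Setdb1 Δ/Δ, Hp1β/γ Δ/Δ and the triple mutant. The first 5 of these groups overlapped with their neighbours, as did Hp1γ Δ/Δ with Setdb1 Δ/Δ and Hp1β/γ Δ/Δ with the triple mutant.

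The ratio of a gene's count to its TPM, set against the median gene of the same library, follows the length of the transcripts to which its reads were assigned. This ratio was read after the levels had been seen. In mutants that keep a paralog it stayed at 0.936 to 1.03 times the control. For Cbx1 it was 1.49, 1.52, 1.58 and 1.70 times the control in Hp1β Δ/Δ, in Hp1α/β Δ/Δ, in Hp1β/γ Δ/Δ and in the triple mutant, with every library above 1.46. For Cbx5 it was 1.18, 1.21, 1.09 and 1.13 times the control in Hp1α Δ/Δ, in Hp1α/β Δ/Δ, in Hp1α/γ Δ/Δ and in the triple mutant. The lowest library of Hp1α Δ/Δ (1.05) and that of Hp1α/γ Δ/Δ (0.993) lay within the range of their control libraries. For Cbx3 it was 0.821, 0.845 and 0.833 times the control in Hp1γ Δ/Δ, in Hp1α/γ Δ/Δ and in Hp1β/γ Δ/Δ, which carry the CRISPR deletion, and 0.975 in the triple mutant, which carries the floxed allele. The fall of a deleted paralog therefore differs between counts and TPM. Cbx1 in Hp1β Δ/Δ fell to 23.7% of set A in CPM, from a mean of 450 to 69.3 in TPM.

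**Figure D2:**
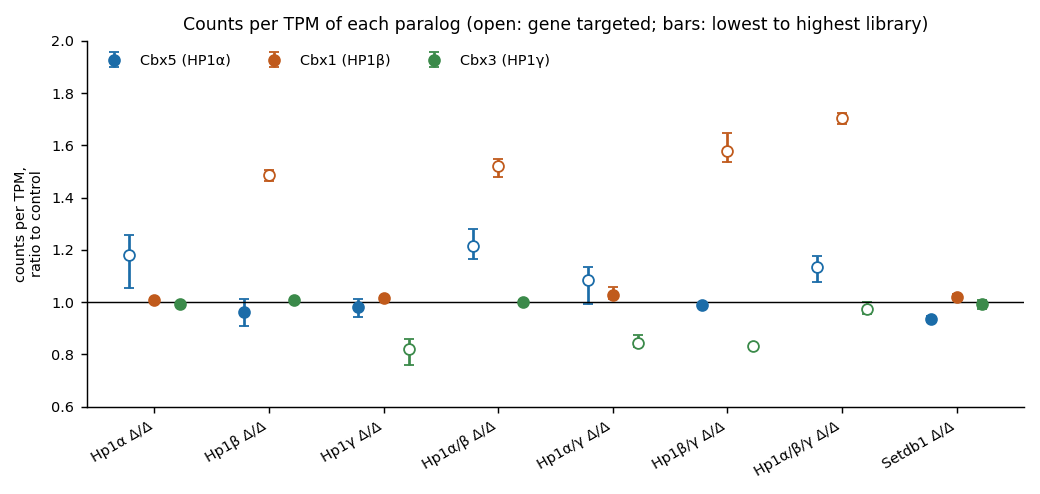
Count per TPM of each paralog, relative to the median gene of the library and to the mean of the control. Points are means of each mutant genotype, bars run from its lowest to its highest library, and a value of 1 is the control. Genotypes that lack Cbx1 lie at 1.46 to 1.73, those with the CRISPR deletion of Cbx3 at 0.758 to 0.873, and genotypes that keep a gene near 1.

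The next question was whether a paralog that is kept changes when another is lost. In Hp1α Δ/Δ and in Hp1β Δ/Δ ESCs Cbx3 rose, and it was the only paralog that rose in more than 1 single mutant against set A. Cbx3 was at 221, 202 and 207 CPM in Hp1α Δ/Δ and at 199, 211 and 213 CPM in Hp1β Δ/Δ. All 6 libraries were above the 3 of set A, which ended at 186 CPM. The change was 0.26 (SE 0.038, adjusted p = 1.30e-05) in Hp1α Δ/Δ, where 22.8% of genes passed as higher and 17.4% of all tested genes rose at least as much. It was 0.21 (SE 0.048, adjusted p = 0.00312) in Hp1β Δ/Δ, where 24.7% passed as higher and 28.3% rose at least as much. These rises were to 119% and 117% of set A and far from the absolute log2 fold change of 1 that the study used as its threshold. With set B as the control they were 0.27 (adjusted p = 0.00418) and 0.22 (adjusted p = 0.0302). Both comparisons share set A as the control. ESC markers moved in both directions in these mutants. The highest and lowest changes were those of Klf4 (1.32) and Zfp42 (-0.17) in Hp1α Δ/Δ, and of Nanog (0.43) and Dppa5a (-1.01) in Hp1β Δ/Δ. The part of the markers in the rise of Cbx3 was not tested.

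Cbx1 was at 463, 452 and 454 CPM in Hp1α Δ/Δ, just above the 430 to 444 CPM of set A. The change was 0.06 (SE 0.024, adjusted p = 0.0369), and the adjusted p lay above 0.05 when any of 4 libraries was left out (highest 0.187). In Hp1γ Δ/Δ, Cbx1 was at 438, 441 and 429 CPM and overlapped with set A. The change there was -0.01 (95% interval -0.06 to 0.04, adjusted p = 0.844). Against set B, which holds less Cbx1, it was 0.18 (adjusted p = 0.0017).

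Cbx5 did not rise in either single mutant that keeps it. It was at 431, 469 and 458 CPM in Hp1β Δ/Δ and at 419, 422 and 415 CPM in Hp1γ Δ/Δ. All 6 libraries were below set A, and those of Hp1γ Δ/Δ also below set B. The change against set A was -0.11 (SE 0.041, adjusted p = 0.0341) in Hp1β Δ/Δ and -0.21 (SE 0.023, adjusted p = 4.90e-07) in Hp1γ Δ/Δ. Against set B it was -0.01 (adjusted p = 0.878) and -0.09 (adjusted p = 0.059), so neither fall passed with both wild-type sets.

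**Figure D3:**
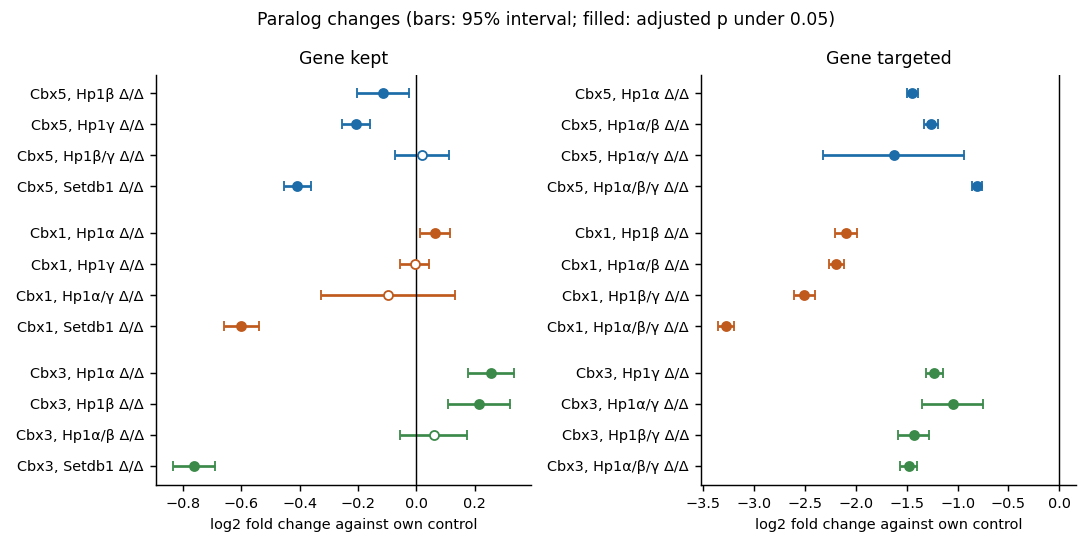
Log2 fold change of Cbx5, Cbx1 and Cbx3 in each mutant against its deposited control, from edgeR fits of 6 libraries, with 95% intervals. Genes that a genotype keeps and genes that it lacks are in separate panels. Filled symbols mark an adjusted p under 0.05. Kept paralogs lie between -0.21 and 0.26 in the Hp1 mutants, and between -0.76 and -0.41 in Setdb1 Δ/Δ cells.

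In double mutants 1 paralog remains. In Hp1α/β Δ/Δ ESCs this is Cbx3, at 203, 187 and 167 CPM, which overlapped with set A. The change was 0.06 (95% interval -0.05 to 0.17, adjusted p = 0.398). It was -0.01 without replicate 1 and 0.13 (adjusted p = 0.036) without replicate 3, the highest and the lowest of these libraries. Against Hp1α Δ/Δ, where 17.5% of genes passed as lower, Cbx3 was lower in Hp1α/β Δ/Δ by a log2 fold change of -0.19 (SE 0.056, adjusted p = 0.0136). That value passed no longer without Hp1α/β Δ/Δ replicate 3 (-0.12, adjusted p = 0.0609) or without Hp1α Δ/Δ replicate 1 (-0.15, adjusted p = 0.084). Against Hp1β Δ/Δ, where 21.1% passed as lower, it was -0.14 (95% interval -0.29 to 0.0035, adjusted p = 0.104).

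An interaction term over the 12 libraries of set A, Hp1α Δ/Δ, Hp1β Δ/Δ and Hp1α/β Δ/Δ tested whether the joint loss of Hp1α and Hp1β departs from the sum of the single changes. For Cbx3 the term was -0.41 (SE 0.082, 95% interval -0.58 to -0.23, adjusted p = 0.000534), in a test in which 45.0% of 16512 genes passed and 21.6% passed as lower. The single rises of 0.26 and 0.21 were thus not added up in the double mutant, where Cbx3 was 0.06 above set A. The term stayed between -0.47 and -0.34 when any library was left out. For Cbx5 it was 0.30 (SE 0.053, adjusted p = 0.000144), the residual Cbx5 RNA being higher in Hp1α/β Δ/Δ than in Hp1α Δ/Δ by 0.19 (SE 0.035, adjusted p = 0.000515), where 18.1% of genes passed as higher. For Cbx1 it was -0.16 (SE 0.058, adjusted p = 0.0366), a call lost when any of 7 libraries was left out. Residual Cbx1 differed between Hp1α/β Δ/Δ and Hp1β Δ/Δ by -0.08 (95% interval -0.21 to 0.04, adjusted p = 0.257). ESC markers also moved in both directions in Hp1α/β Δ/Δ against set A, from Zfp42 (-0.32) to Klf4 (2.13). Their part in these terms was not tested.

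In Hp1α/γ Δ/Δ ESCs the kept paralog is Cbx1, at 356, 385 and 379 CPM, which overlapped with set B. The change was -0.10 (95% interval -0.33 to 0.13, adjusted p = 0.443), and without replicate 2 it was -0.08 (adjusted p = 0.204). Against set A it was -0.26 (adjusted p = 0.0329). Marker genes moved in this genotype, where 46.5% of all genes passed against set B in either direction. Of the ESC markers 7 of 8 were higher (median 1.03), and all 8 tested feeder markers were lower (median -3.17). The same counts passed without replicate 2, and the libraries had summed feeder levels of 13.4 to 14.4 CPM against 58.2 to 67.2 CPM in set B. Their part in the result was not tested. In Hp1β/γ Δ/Δ ESCs the kept paralog is Cbx5, at 459, 470 and 447 CPM, which also overlapped with set B. The change was 0.02 (95% interval -0.07 to 0.11, adjusted p = 0.733), and against set A it was -0.08 (adjusted p = 0.0162).

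The changes in these double mutants were also set against those in the single mutants, each relative to its own wild-type set. The change of residual Cbx1 was lower in Hp1β/γ Δ/Δ than in Hp1β Δ/Δ by a difference of -0.43 (SE 0.067, adjusted p = 6.35e-05), where 20.5% of 17109 genes passed as lower. Cbx5 changed by 0.22 (SE 0.046, adjusted p = 0.00106) more in Hp1β/γ Δ/Δ than in Hp1γ Δ/Δ, where 16.7% passed as higher. In Hp1β/γ Δ/Δ against set B, where 51.7% of all genes passed, 7 of 8 ESC markers were lower and 1 higher (median -0.30). Of 8 tested feeder markers 4 were lower (median -0.48). The part of these markers in the differences was not tested. Kept Cbx1 changed by -0.12 (95% interval -0.32 to 0.08, adjusted p = 0.335) in Hp1α/γ Δ/Δ compared with Hp1α Δ/Δ and by -0.04 (95% interval -0.24 to 0.16, adjusted p = 0.766) compared with Hp1γ Δ/Δ. These differences combine 2 wild-type sets. Set B was lower than set A in Cbx1 by -0.17 (SE 0.041, adjusted p = 0.00552), a comparison in which 12.5% of genes passed as lower. It was -0.09 (SE 0.038, adjusted p = 0.0883) in Cbx5 and 0.0025 (SE 0.068, adjusted p = 0.985) in Cbx3. The difference in Cbx5 passed only without set B replicate 1 (-0.13, adjusted p = 0.00128).

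Since the paralogs differ in abundance, the summed TPM of the kept paralogs was set beside the TPM that the deleted paralogs had in the control. In Hp1α Δ/Δ the sum of Cbx1 and Cbx3 was 615 to 654 TPM against 588 to 602 TPM in set A. The mean was 34.4 TPM higher, where Cbx5 had contributed 91.4 TPM. This is 37.6% of the level of Cbx5 in set A, and in RPKM it was 18.0%. In Hp1β Δ/Δ the sum of Cbx5 and Cbx3 was 248 ± 10.2 against 236 ± 1.14 TPM (SD, n = 3), 11.99 TPM higher where Cbx1 had contributed 450.1 TPM. In Hp1γ Δ/Δ the sum of Cbx5 and Cbx1 was 516 ± 6.97 against 541 ± 16.8 TPM.

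In no double mutant was the kept paralog above its control beyond the spread of the libraries. Cbx3 in Hp1α/β Δ/Δ was at 149 ± 12.1 against 145 ± 4.83 TPM, 4.15 TPM higher where Cbx5 and Cbx1 had contributed 541 TPM. Cbx5 in Hp1β/γ Δ/Δ was at 72.9 ± 2.23 against 73.8 ± 1.84 TPM. Cbx1 in Hp1α/γ Δ/Δ was at 311, 223 and 328 TPM against 389 to 402 TPM in set B, 72.7% of it in TPM but 96.1% in RPKM. On log2(TPM + 1) its change was -0.48, while the median gene of that comparison was at -0.30. In exact two-sided permutation tests of the 7 sums, p was 0.1 in Hp1α Δ/Δ, Hp1α/γ Δ/Δ and Setdb1 Δ/Δ, 0.2 in Hp1β Δ/Δ and Hp1γ Δ/Δ, 0.7 in Hp1α/β Δ/Δ and 0.6 in Hp1β/γ Δ/Δ. With 3 libraries against 3 the smallest p such a test can give is 0.1.

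**Figure D4:**
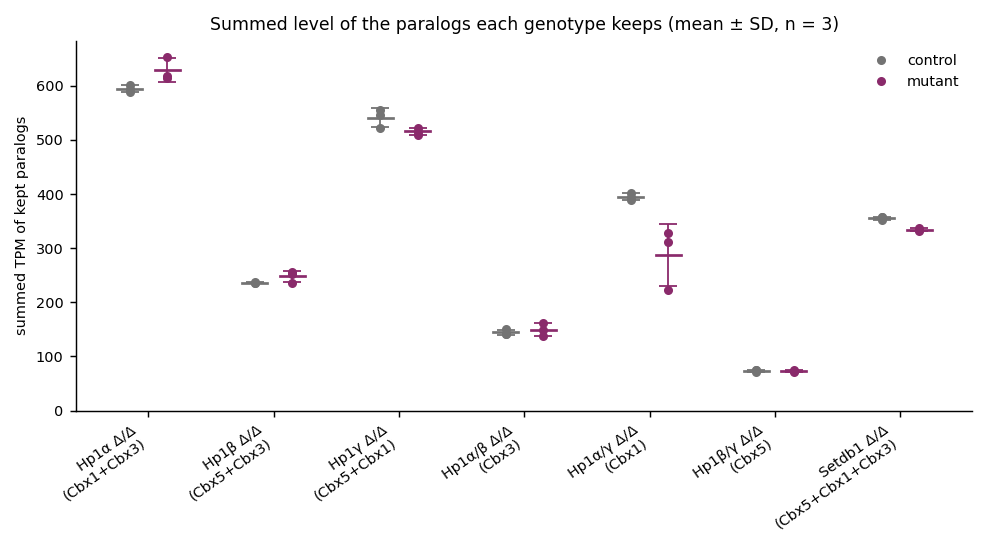
Summed TPM of the paralogs that a genotype keeps, in its 3 libraries and in the 3 libraries of its control, on an axis from 0. Sums in the Hp1 mutants lie near those of their control, within 34.4 TPM of it on average, except for Hp1α/γ Δ/Δ.

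All 3 paralogs together, residual RNA of deleted genes included, summed to 686 ± 12.3 TPM in set A and 618 ± 22.9 TPM in set B. The sum was 657 ± 20.3 TPM in Hp1α Δ/Δ, 590 ± 13.7 TPM in Hp1γ Δ/Δ and 317 ± 13.9 TPM in Hp1β Δ/Δ, which has lost most of the most abundant member. It was 373 ± 74.2 TPM in Hp1α/γ Δ/Δ, 244 ± 9.44 TPM in Hp1α/β Δ/Δ, 179 ± 5.31 TPM in Hp1β/γ Δ/Δ and 167 ± 7.90 TPM in the triple mutant. The libraries of Hp1β/γ Δ/Δ (174 to 185 TPM) lay just above those of the triple mutant (158 to 173 TPM), with 72.9 TPM of their mean from the intact Cbx5.

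Removal of Hp1γ from cells that already lack Hp1α and Hp1β was read from the triple mutant against Hp1α/β Δ/Δ ESCs, where 80.6% of 17426 genes passed. Cbx3 fell by 1.55 on the log2 scale (SE 0.060, adjusted p = 7.61e-13) and residual Cbx1 by 1.09 (SE 0.052, adjusted p = 9.07e-12). Residual Cbx5 rose by 0.44 (SE 0.033, adjusted p = 3.45e-09), from 200 to 207 CPM up to 278 to 287 CPM, without overlap. Of all tested genes 37.3% rose at least as much. The residual RNAs of Cbx5 and Cbx1 thus moved in opposite directions. On library totals alone, where the median gene was at 0.31, Cbx5 was at 0.72 and Cbx1 at -0.82, again in opposite directions. With DESeq2, which tested 24656 genes, Cbx5 was at 0.45 and Cbx1 at -1.09, with the median gene at 0.47. The double mutant was isolated by cloning and the triple mutant was a recently recombined population, so genotype and derivation cannot be told apart. In this step Zfp42 alone among the ESC markers rose (0.34), and the others fell, from Nanog (-2.39) and Klf4 (-2.11) to Esrrb (-0.41). Against set A, where 81.6% of genes passed, 5 of 8 ESC markers fell and 1 rose in the triple mutant (median -1.18). Of 6 tested primitive endoderm markers 4 rose and 2 fell, and of 8 tested feeder markers 2 rose and 5 fell. Their part in these results was not tested.

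Setdb1 was next. Its own RNA fell in Setdb1 Δ/Δ cells from 135.1, 131 and 130 CPM to 71.9, 69.2 and 68.5 CPM, by -0.93 (SE 0.034, adjusted p = 3.98e-14). The change was -0.66 on library totals and -0.31 in TPM, where the median gene was at 0.28 and 0.44. All 3 Hp1 paralogs were lower in these cells, where 38.8% of 16457 genes passed as lower and 40.2% as higher. Cbx5 was at 402, 410 and 414 CPM against 539, 525 and 553 CPM in Setdb1 F/F. Cbx1 was at 114, 116 and 113 CPM against 174, 173 and 168 CPM. Cbx3 was at 75.5, 75.7 and 72.6 CPM against 126, 128 and 123 CPM. None of the 3 genes overlapped between the groups. The changes were -0.41 (SE 0.022, adjusted p = 1.22e-11) for Cbx5, -0.60 (SE 0.029, adjusted p = 2.64e-12) for Cbx1 and -0.76 (SE 0.033, adjusted p = 6.98e-13) for Cbx3. Of all tested genes 83.2% had a change at least as high as that of Cbx3. Of 8 ESC markers 6 also fell in these cells (median -0.68), while Zfp42 (0.67) and Sox2 (0.13) rose. Of 8 primitive endoderm markers 7 fell (median -0.98), while Foxa2 (3.19) rose. The part of these markers in the result was not tested.

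The direction for Cbx5 depended on the scale. In TPM it was higher in Setdb1 Δ/Δ (89.4, 91.8 and 95.2 TPM) than in Setdb1 F/F (80.8, 80.5 and 82.7 TPM), at 0.18 (SE 0.033, adjusted p = 0.00263, limma on log2(TPM + 1)). On that scale the median gene was at 0.44, and relative to it Cbx5 was at -0.26. Cbx1 was at -0.13 and Cbx3 at -0.26 in TPM, or -0.57 and -0.69 relative to the median gene. On library totals alone, with the median gene at 0.28, Cbx5 was at -0.14, Cbx1 at -0.33 and Cbx3 at -0.49. On each of these scales Cbx3 was lowest and Cbx5 highest, an order that did not hold once pseudogene counts were added to Cbx3. The summed TPM of the 3 genes was 332 to 338 in Setdb1 Δ/Δ and 353 to 357 in Setdb1 F/F, 94.0% of it in TPM and 69.9% in RPKM.

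**Figure D5:**
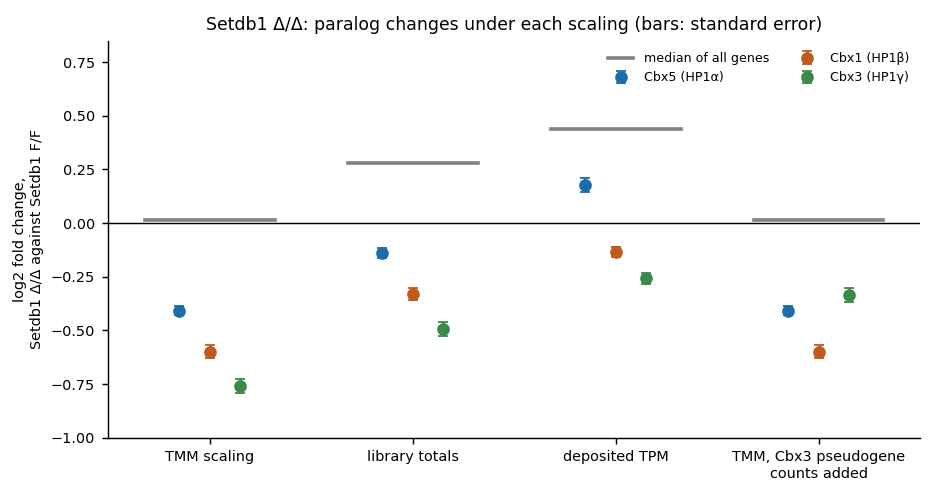
Log2 fold change of the 3 paralogs in Setdb1 Δ/Δ cells against Setdb1 F/F under each scaling, with the median of all tested genes under the same scaling. Cbx5 runs from -0.41 with TMM to 0.18 in TPM, while the median of all genes runs from 0.01 to 0.44.

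A processed pseudogene of Cbx3 appeared in the same cells. Cbx3-ps7 (chr1:58646688-58647239, plus strand, GRCm38) had 464, 545 and 525 counts in Setdb1 Δ/Δ. It had 1, 0 and 0 counts in Setdb1 F/F and 2 counts over the other 27 libraries. The ratio of CPM was 1370, with a 95% interval of 246 to 54146 that covers counting error only. Flacc1, which overlaps it on the opposite strand, had at most 4 counts in a Setdb1 Δ/Δ library. A processed pseudogene is a near copy of the spliced RNA, so how reads were split between it and Cbx3 is uncertain. Cbx3 and Cbx3-ps7 together came to 98.3, 103 and 103 TPM in Setdb1 Δ/Δ against 101, 102 and 100.02 TPM in Setdb1 F/F, and to 98.8, 102 and 97.6 CPM against 126, 128 and 123 CPM. With the counts of all 8 listed Cbx3 pseudogenes added to Cbx3, its change was -0.34 (SE 0.032, adjusted p = 3.18e-08) in place of -0.76, a smaller fall than those of Cbx1 (-0.60) and Cbx5 (-0.41). Cbx3-ps5 had 24, 29 and 17 counts in Setdb1 F/F and 30, 33 and 41 in Setdb1 Δ/Δ.

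The line with floxed Setdb1 differed from the wild-type ESCs before any deletion. Cbx1 was lower in Setdb1 F/F by -1.35 (SE 0.025, adjusted p = 1.38e-18) than in set A, where 38.5% of genes passed as lower, and by -1.18 (SE 0.042, adjusted p = 1.75e-11) than in set B, where 37.6% did. Cbx3 was lower by -0.50 (SE 0.034, adjusted p = 2.53e-10) and -0.49 (SE 0.069, adjusted p = 1.79e-05), and Cbx5 higher by 0.15 (SE 0.021, adjusted p = 3.08e-06) and 0.25 (SE 0.039, adjusted p = 4.79e-05). Setdb1 itself was also lower, by -0.60 (SE 0.032, adjusted p = 5.58e-12) against set A and -0.48 (SE 0.040, adjusted p = 1.01e-07) against set B. The 8 ESC markers summed to 6527 to 6568 CPM in Setdb1 F/F against 2379 to 2541 CPM in both wild-type sets, with all 8 higher. The feeder markers summed to 16.9 to 18.0 CPM against 38.0 to 67.2 CPM, with 7 of 8 tested lower. Their part in these differences was not tested. These comparisons were chosen after the levels had been seen. The line, its culture and the floxed allele cannot be told apart here. The fall of Cbx1 from set A to Setdb1 F/F was larger than its fall from Setdb1 F/F to Setdb1 Δ/Δ.

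Setdb1 itself belongs to the partners of HP1. It was at -0.13 (adjusted p = 0.0112) in Hp1α/β Δ/Δ, -0.13 (adjusted p = 0.0183) in Hp1β/γ Δ/Δ and -0.52 (SE 0.032, adjusted p = 2.22e-11) in the triple mutant. The last was -0.27 on library totals and -0.21 in TPM, where the median gene was at 0.28 and 0.36. Setdb1 did not pass in the 3 single mutants (-0.05 to 0.05) or in Hp1α/γ Δ/Δ (-0.14, adjusted p = 0.435, and 0.00043 with adjusted p = 0.995 without replicate 2). Of 22 listed HP1 partners, which bind HP1 or write the methyl marks around it, 21 were tested. In the triple mutant 15 were lower and 5 higher, where 39.9% of all genes passed as lower and 41.7% as higher, and the median was -0.58 beside 0.03 over all genes. The lower ones included the DNA methyltransferases Dnmt3b (-1.69) and Dnmt1 (-1.17), the lamin B receptor Lbr (-1.68), the H3K9 methyltransferase Ehmt1 (-1.62), the chromatin remodeller Atrx (-1.11) and the H4K20 methyltransferase Kmt5c (-1.05). The H3K9 methyltransferase Suv39h2 was higher (0.89).

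The other mutants showed smaller shifts of this list. In Setdb1 Δ/Δ 12 partners were lower and 8 higher, where 38.8% and 40.2% of all genes passed, with a median of -0.19 beside 0.01 over all genes, led by Suv39h2 (-1.68), the H3K9 methyltransferase Ehmt2 (-1.54) and Adnp (-1.18). The counts of higher and lower partners were 8 and 5 in Hp1α Δ/Δ (median 0.01), 8 and 2 in Hp1β Δ/Δ (0.07), 8 and 5 in Hp1γ Δ/Δ (0.05), 4 and 7 in Hp1α/β Δ/Δ (-0.01) and 4 and 9 in Hp1β/γ Δ/Δ (-0.04). Of all genes 45.0%, 51.1%, 46.7%, 43.4% and 51.7% passed in these comparisons in the same order. In Hp1α/γ Δ/Δ, where 46.5% passed, they were 4 and 4 (-0.14), with Dnmt3a (-1.54), Suv39h1 (-1.46) and Dnmt3b (-1.18) lower. Without replicate 2 of that genotype they were 9 and 7 (0.12), and Dnmt3a was at -1.47, Suv39h1 at -1.33 and Dnmt3b at -1.06.

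Cbx2, Cbx6, Cbx7 and Cbx8 encode Polycomb chromodomain proteins, which read methylated H3K27. In the triple mutant Cbx8 (2.102, SE 0.27, adjusted p = 9.37e-07) rose, and Cbx7 (-1.35, SE 0.031, adjusted p = 2.88e-18), Cbx2 (-0.28) and Cbx6 (-0.22) fell. In Setdb1 Δ/Δ cells Cbx8 also rose (2.63), and Cbx7 (-0.81), Cbx2 (-0.63) and Cbx6 (-0.30) fell. In each of the single and double Hp1 mutants Cbx2 fell, by changes between -0.51 and -0.15, and Cbx8 did not pass (-0.91 to 0.54). In Hp1α/γ Δ/Δ without replicate 2, Cbx2 was at -0.41 (adjusted p = 0.000215) and Cbx7 at -0.23 (adjusted p = 0.002).

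The nearest protein-coding genes on either side of each paralog were read next. Hnrnpa1 starts 615 bases from Cbx5 and Hnrnpa2b1 465 bases from Cbx3, each head to head with it, and both encode RNA-binding proteins. In Hp1α Δ/Δ Hnrnpa1 was at 0.05 (adjusted p = 0.0266) while Cbx5 was at -1.45, and in Hp1γ Δ/Δ Hnrnpa2b1 was at 0.01 (adjusted p = 0.731) while Cbx3 was at -1.23. In the triple mutant Hnrnpa1 was at -0.73 and Hnrnpa2b1 at -0.57, and in Setdb1 Δ/Δ at -0.64 and -0.40 (each with adjusted p under 0.05). Snx10, which starts 40196 bases beyond the end of Cbx3, was at 0.27 (adjusted p = 0.000356) in Hp1α Δ/Δ, 0.29 (adjusted p = 0.00114) in Hp1β Δ/Δ, 0.53 (SE 0.049, adjusted p = 5.18e-08) in Hp1γ Δ/Δ and 0.61 (SE 0.052, adjusted p = 3.47e-08) in Hp1α/β Δ/Δ. It did not pass in Hp1α/γ Δ/Δ (0.12) or Hp1β/γ Δ/Δ (-0.06), and it fell in the triple mutant (-0.57) and in Setdb1 Δ/Δ (-1.34, SE 0.087, adjusted p = 1.74e-10). Smug1, a DNA repair gene on the other side of Cbx5 from Hnrnpa1, did not pass in the single mutants (-0.12 to 0.02). It was lower in Hp1β/γ Δ/Δ (-0.36), in the triple mutant (-0.36) and in Setdb1 Δ/Δ (-0.42). Nfe2l1, a transcription factor gene that lies tail to tail with Cbx1, was at -0.08 (adjusted p = 0.0776) in Hp1β Δ/Δ and at -1.06 (adjusted p = 2.91e-17) in the triple mutant. Snx11, on the other side of Cbx1, was at 0.20 (adjusted p = 0.0201) in Hp1β Δ/Δ. In the other genotypes without Cbx1 it was at -0.12 (adjusted p = 0.107, Hp1α/β Δ/Δ), -0.32 (adjusted p = 0.0002, Hp1β/γ Δ/Δ) and -0.22 (adjusted p = 0.00322, triple mutant).

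Genes most like each paralog were taken by the correlation of log2 ratios to control over the 12 mutant libraries that keep it, among 9325 to 9414 protein-coding genes. For Cbx1 these were Gadd45a (r = 0.994), Atic (r = 0.994) and Eef2 (r = 0.993). For Cbx3 they were Dis3 (r = 0.996), H3f3a (r = 0.994) and Hspe1 (r = 0.993), and for Cbx5 Ggct (r = 0.984), Mgat1 (r = 0.977) and B4galt1 (r = 0.976). The libraries of a genotype share their cells and their control, and the 3 Setdb1 Δ/Δ libraries lie apart from the rest. Without them, over 9 libraries, r was 0.837 to 0.861 for the genes named for Cbx1, 0.901 to 0.925 for those of Cbx3 and 0.945 to 0.9503 for those of Cbx5.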

How the data were processed

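RNA-seq of 33 libraries was used, 3 per genotype, which the methods call biological replicates. The authors sequenced 150 bp paired-end reads of total RNA libraries, and the submitters' processing notes name TopHat2 2.1.1, RSEM, edgeR and the genome GRCm38.p5. Each deposited table holds, for 1 mutant and its control, estimated counts (not normalized, RSEM's expected counts) and TPM (scaled by the authors to transcript length and library total). The log2 fold changes and p-values that the authors computed from them with DESeq2 were not used.

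Estimated counts were rounded to whole numbers. Of 55487 genes, 55141 were found by identifier in GENCODE M21 (GRCm38), which gave positions and exons. Each comparison was fitted on its 6 libraries in edgeR 4.0.16 (R 4.3.3, limma 3.58.1) with filterByExpr at a minimum count of 10, TMM scaling, glmQLFit and glmQLFTest, and p-values were Benjamini-Hochberg adjusted over all tested genes, with 0.05 as the threshold. The interaction and the differences between double and single mutants were fitted over 12 libraries. CPM were scaled by TMM over all libraries, RPKM used the exon union, and sums were compared by exact permutation tests. Intervals are 95%. Total counts had a median of 21522605.

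The text names the paralogs, Setdb1, members of the lists that passed with an absolute log2 fold change over 1 (otherwise the largest), the nearest protein-coding neighbours, pseudogenes named after a paralog, and the 3 genes most correlated with each paralog at a mean of at least 10 CPM. The genes and lists were chosen with earlier results of these data known. A result for a member of the lists is not reported here. Counts were simulated for Hp1α Δ/Δ against set A (15575 genes). Of 100 genes changed by 1 on the log2 scale 88% were recovered, and of 98 changed by 0.25 36.7%, with 9 unchanged genes called. For the interaction (16239 genes) these were 57% of 100, 7.1% of 99 and 7 genes. Far fewer genes were changed in the simulation than passed in the data, so these shares cannot be carried over to the fits of the data. Alternatives were RLE size factors, library totals, no filter, DESeq2 1.42.0, a replicate block, each library left out, the other wild-type set, a joint fit, TPM with limma, and pseudogene counts added to Cbx3.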

Additional observations from a re-analysis of the deposited data

Results flagged for a closer look

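The joint loss of Hp1α and Hp1β differed from the sum of the single losses for all 3 paralogs in edgeR's quasi-likelihood test of the interaction over 12 libraries, in which 45.0% of all genes passed. The term was 0.300 for Cbx5 (adjusted p = 0.000144), -0.156 for Cbx1 (adjusted p = 0.0366) and -0.406 for Cbx3 (adjusted p = 0.000534). The call for Cbx1 was lost when any of 7 libraries was left out, with library totals and without the filter. Cbx3 is kept in these genotypes, whereas Cbx5 and Cbx1 are each deleted in 2 of them, so their terms concern residual RNA as well.

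The change of residual Cbx1 differed between Hp1β/γ Δ/Δ and Hp1β Δ/Δ by -0.432 (adjusted p = 6.35e-05), and that of kept Cbx5 between Hp1β/γ Δ/Δ and Hp1γ Δ/Δ by 0.215 (adjusted p = 0.00106). Each change was taken relative to its own wild-type set.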

How the results depend on the processing

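For the 57 paralog results, 816 values were computed under alternatives. Of these 756 kept direction and side of the threshold, 29 kept the direction but passed no longer, 13 passed only under the alternative and 18 turned direction. In all 39 results kept both under every alternative run. The alternatives on TPM, pseudogenes and single libraries of the 12-library fits, the gene lists without Hp1α/γ Δ/Δ replicate 2, and the comparisons with Setdb1 F/F, were chosen after seeing the data. The cause of the following differences was not tested.

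With library totals, Cbx1 passed no longer in Hp1α Δ/Δ (0.036, adjusted p = 0.241) nor its interaction (-0.10), while the change in Hp1β/γ Δ/Δ minus Hp1β Δ/Δ for Cbx5 (0.18) and in Hp1α/γ Δ/Δ minus Hp1α Δ/Δ for Cbx1 (-0.31) passed. With RLE factors, Cbx5 in Hp1β Δ/Δ did not pass (-0.094), and Cbx1 in Hp1γ Δ/Δ (0.0016) and Cbx3 in set B against A (-0.0018) turned. With DESeq2 the same values were -0.092, 0.0040 and -0.0044. Without a filter, Cbx3 in Hp1α/β Δ/Δ against Hp1β Δ/Δ (-0.14, adjusted p = 0.0319) and in Hp1β/γ Δ/Δ minus Hp1γ Δ/Δ (-0.21) passed, Cbx1 in the interaction did not (-0.16, adjusted p = 0.054), and Cbx3 in set B against A turned (-0.0018).

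In TPM, Cbx1 in Hp1α Δ/Δ (0.026), Cbx5 in Hp1β Δ/Δ (-0.095), and Cbx5 (0.14) and Cbx3 (-0.20) in Hp1α/β Δ/Δ against Hp1α Δ/Δ did not pass, so 2 and not 4 of the 6 double against single tests passed. Cbx1 in Hp1α/γ Δ/Δ passed (-0.48, with the median gene at -0.30), and Cbx5 turned in Hp1β/γ Δ/Δ (-0.018) and Setdb1 Δ/Δ (0.18). With the other wild-type set, Cbx5 in Hp1β Δ/Δ (-0.011) and Hp1γ Δ/Δ (-0.094) did not pass, Cbx1 in Hp1α/γ Δ/Δ did (-0.26), and Cbx1 in Hp1γ Δ/Δ (0.18) and Cbx5 in Hp1β/γ Δ/Δ (-0.078) turned. In a joint fit of all libraries sharing the control, Cbx1 in Hp1α Δ/Δ did not pass (0.065, adjusted p = 0.209). In RPKM, summed levels were 96.1% of the control in Hp1α/γ Δ/Δ, 69.9% in Setdb1 Δ/Δ, and 65.0% and 70.9% for Setdb1 F/F against sets A and B. Of 407 tests of listed genes 272 passed, and 79 did so with an absolute log2 fold change over 1. In the same comparisons the share of all tested genes that passed ran from 43.4% (Hp1α/β Δ/Δ) to 81.6% (the triple mutant).

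With each library left out in turn, log2 fold changes ran from 0.047 to 0.078 for Cbx1 in Hp1α Δ/Δ, from -0.14 to -0.073 for Cbx5 in Hp1β Δ/Δ, from -0.022 to 0.0062 for Cbx1 in Hp1γ Δ/Δ, from -0.0078 to 0.13 for Cbx3 in Hp1α/β Δ/Δ, and from -0.0065 to 0.052 for Cbx5 in Hp1β/γ Δ/Δ. Cbx3 in Hp1α/β Δ/Δ ran from -0.25 to -0.12 against Hp1α Δ/Δ and from -0.21 to -0.071 against Hp1β Δ/Δ. Differences ran from 0.082 to 0.15 for Cbx5 in Hp1β/γ Δ/Δ minus Hp1β Δ/Δ, from -0.28 to -0.12 for Cbx3 in Hp1β/γ Δ/Δ minus Hp1γ Δ/Δ, from -0.19 to -0.098 for Cbx1 in the interaction, and from -0.32 to 0.14 for Cbx5 in Hp1α/γ Δ/Δ minus Hp1α Δ/Δ. The last turned from -0.15 to 0.14 (adjusted p = 0.035) without Hp1α/γ Δ/Δ replicate 2. Set B against A ran from -0.13 to -0.071 for Cbx5 and from -0.091 to 0.084 for Cbx3. The summed level in Hp1γ Δ/Δ ran from 93.7% to 96.5% of set A.

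Replicate numbers did not pair the libraries, since no correlation of same-numbered deviations exceeded 0.1 in any comparison (highest 0.074). Every library correlated best with its own number only in Hp1β/γ Δ/Δ against set B. With the number as a block, 54 of 57 results were unaffected. Cbx1 in Hp1α Δ/Δ was at 0.064 (adjusted p = 0.0519), Cbx3 in Hp1β/γ Δ/Δ minus Hp1γ Δ/Δ at -0.21 (adjusted p = 0.038), and Cbx3 in set B against A at -0.0027.

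Clones, recombination and line were not replicated independently of genotype, which depth cannot remedy.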
